A study of Homo sapiens with 4 samples.

Results

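c-MYC peaks that lay away from annotated gene starts in DMSO-treated MIA PaCa-2 cells, and that were still called after treatment with AMG510 or trametinib, were examined as a group. Of 9552 c-MYC peaks called in DMSO, 4603 were distal, meaning that the summit lay more than 1 kb from the transcription start site (TSS) of every protein-coding and lncRNA transcript in GENCODE version 44. Of these, 409 overlapped by at least 1 bp a c-MYC peak called under AMG510 or trametinib and are called kept distal peaks here. They were chosen by the DMSO call, the distance to a TSS and the overlap with the drug lists, so those values describe them and are not findings. MIA PaCa-2 is an established cell line of pancreatic ductal adenocarcinoma. Cells had been treated for 8 h with DMSO, AMG510 at 100 nM or the MEK inhibitor trametinib at 10 nM, and chromatin was precipitated with a c-MYC antibody in all 3 treatments and with non-specific IgG in DMSO only. Each of the 4 groups had 1 library, so no difference between treatments has a replicate check, and the 95% intervals below cover counting error only.

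c-MYC is a transcription factor that binds DNA as a dimer with its partner MAX, with a preference for the E-box sequence CACGTG and for related sequences such as CACGCG. Much of its binding in tumour cells is found at active promoters, which often lie in CpG islands, stretches rich in G, C and the dinucleotide CG. Binding away from promoters occurs at enhancers and at starts of transcripts that a gene annotation may leave out. A ChIP made with IgG recognises no particular protein, so a peak in the IgG library marks a place where reads pile up without the c-MYC antibody.

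The depth behind the lists was similar. The tags that entered peak calling, as implied by the deposited values, ranged from 22700000 in the IgG library to 24800000 under trametinib. These estimates rest on an assumed genome size and fragment length. The paper's counts of uniquely mapped reads are also similar but lowest under trametinib, so the order of the libraries by depth is uncertain. The IgG list held 2966 peaks, the AMG510 list 10378 and the trametinib list 5431. The weakest summits called had 7 or 8 tags, and the median DMSO c-MYC summit had 13.

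Across all DMSO c-MYC peaks, 26.7% were overlapped by a peak of either drug, 20.5% by an AMG510 peak and 17.1% by a trametinib peak. For distal peaks the share kept under a drug was 8.89% (95% Wilson interval 8.10 to 9.74), and for peaks within 1 kb of a TSS it was 2145 of 4949, or 43.3% (42.0 to 44.7). Of the 409 kept distal peaks, 205 were overlapped under both drugs, 130 under AMG510 only and 74 under trametinib only. Of the 2145 kept peaks near a TSS, 1627 were overlapped under AMG510 and 1357 under trametinib, so most of these were kept under a single drug. Because the 3 c-MYC lists differ in length, the counts for the 2 drugs are not a measure of how much each drug acts.

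The summit sequences of the named peaks with and without an E-box are shown first, because the E-box is the feature by which the kept distal peaks are compared below. The peaks were taken in order of strength from those that were kept under both drugs on chromosomes 1 to 22 and X and had no IgG peak. Of the 10 peaks named in this way, 4 had CACGTG within 100 bp of the DMSO summit. Sequences are from GRCh38, plus strand, 5′ to 3′, and reach 50 bp to each side of the summit, or 100 bp for C19orf48P, whose E-box lies 95 bp from the summit. Capitals mark CACGTG. The first 4 hold it and the last 2, shown for contrast, do not, nor do they hold CACGCG on either strand.
FAM86KP, chr4:9153416-9153516: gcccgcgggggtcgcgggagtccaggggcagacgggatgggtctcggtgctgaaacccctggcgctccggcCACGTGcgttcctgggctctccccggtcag
C19orf48P, chr19:50804325-50804525: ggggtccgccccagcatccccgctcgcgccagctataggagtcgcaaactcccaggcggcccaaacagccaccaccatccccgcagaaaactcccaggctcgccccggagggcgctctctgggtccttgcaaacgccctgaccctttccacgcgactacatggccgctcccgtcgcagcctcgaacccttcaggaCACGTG
ENSG00000259053, chr14:89701799-89701899: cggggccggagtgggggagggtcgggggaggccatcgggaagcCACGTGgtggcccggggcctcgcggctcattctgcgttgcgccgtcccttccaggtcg
ENSG00000289832, chr12:1661972-1662072: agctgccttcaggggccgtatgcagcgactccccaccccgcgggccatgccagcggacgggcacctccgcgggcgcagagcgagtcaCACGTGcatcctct
RNVU1-15, chr1:144412654-144412754: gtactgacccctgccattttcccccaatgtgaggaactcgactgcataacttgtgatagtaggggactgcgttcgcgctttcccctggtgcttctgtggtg
PRRX2, chr9:129697414-129697514: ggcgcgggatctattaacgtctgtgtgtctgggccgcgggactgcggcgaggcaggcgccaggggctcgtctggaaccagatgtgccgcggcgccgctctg

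The kept distal peaks were first compared with the IgG library. An IgG peak overlapped 161 of the 409, or 39.4% (34.7 to 44.2), against 2.00% of all DMSO c-MYC peaks and 14 of 4194 distal peaks that were not kept, or 0.33% (0.20 to 0.56). The difference between kept and not kept distal peaks was 39.0 percentage points (Newcombe 95% interval 34.4 to 43.8). Among kept peaks near a TSS, 10 of 2145 had an IgG peak. Read from the other side, 161 of the 175 distal DMSO peaks with an IgG peak were kept, or 92.0%. Of the 205 peaks kept under both drugs, 128 had an IgG peak, or 62.4%. The lists hold called peaks only, so a peak without an IgG call may still have held IgG tags.

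Position in the assembly divided the kept distal peaks further. On chromosomes 1 to 22 and X lay 277 of them (67.7%), and 132 lay on 45 other contigs, nearly all unplaced or unlocalised sequence of GRCh38. Of the 179 distal DMSO peaks on these contigs, 132 were kept (73.7%). GENCODE lists no TSS on the contigs of 129 kept peaks, so these were distal by the rule only because no start is annotated there. The results are therefore given for 161 IgG-overlapping kept peaks, 205 kept peaks with no IgG peak on chromosomes 1 to 22 and X, called IgG-free chromosomal kept peaks, and 43 with no IgG peak on other contigs.

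**Figure D1:**
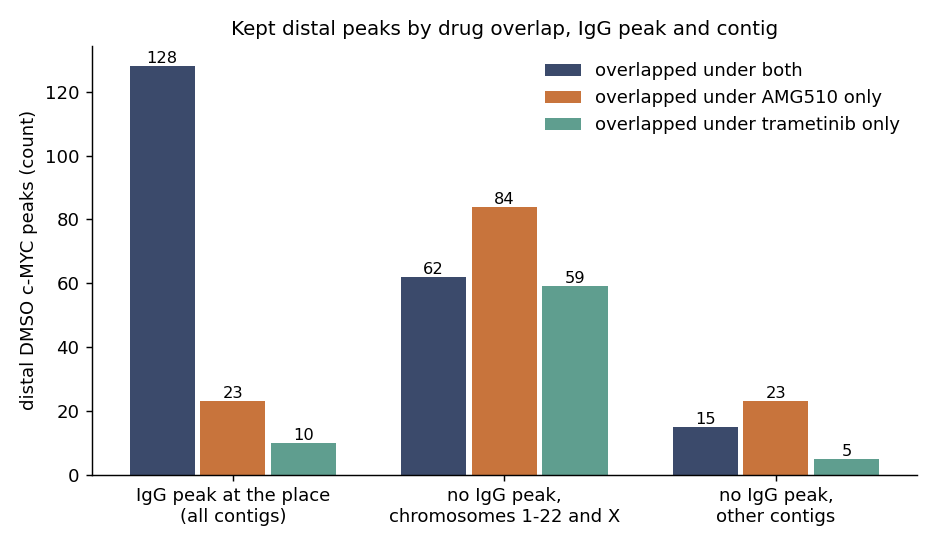
Number of kept distal peaks (vertical axis) by whether an IgG peak overlapped them and by contig, with bars for overlap under both drugs, AMG510 only and trametinib only. IgG-overlapping peaks were mostly kept under both drugs (128 of 161), and IgG-free chromosomal peaks were mostly kept under a single drug (84 and 59 of 205). Kept TSS-near peaks, not drawn, were also mostly kept under a single drug, so this was not particular to the IgG-free chromosomal peaks.

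The IgG-overlapping kept peaks were strong in every library. At their summits the c-MYC libraries had a median of 30 tags in DMSO (161 peaks), 31 under AMG510 (151 peaks) and 29.5 under trametinib (138 peaks), and the IgG library had a median of 27. In 108 of the 161 (67.1%) the fold enrichment was higher in the IgG library than in DMSO c-MYC. The 3 strongest by DMSO fold enrichment all lay on unplaced contigs. At chrUn_KI270337v1:1-946 the DMSO summit held 89 tags, the AMG510 summit 99, the trametinib summit 100 and the IgG summit 96. At chrUn_GL000220v1:142787-143054 they held 90, 103, 88 and 83 tags, in the same order. At chrUn_KI270466v1:283-1271 they held 266, 238, 254 and 219 tags. At each of these places the IgG pileup was thus of the same size as the c-MYC pileups.

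The sequence under these peaks was often repeated in the genome. Copy number was read as the median count, in the reference, of the 31-base words in the 201 bp around the summit. It was at least 2 for 102 of 161 IgG-overlapping kept peaks (63.4%, 55.7 to 70.4), against 33 of 205 IgG-free chromosomal kept peaks (16.1%, 11.7 to 21.7) and 667 of 4194 distal peaks not kept (15.9%, 14.8 to 17.0). For the 43 IgG-free kept peaks on other contigs it was 19 (44.2%, 30.4 to 58.9). Windows with 5 or more copies of GGAAT on either strand, the repeating unit of a family of human satellite DNA, made up 47 of 161 IgG-overlapping peaks (29.2%), 17 of 43 on other contigs (39.5%), 6 of 205 IgG-free chromosomal peaks (2.93%) and 17 of 4194 peaks not kept (0.41%). GGAAT partly overlaps the TEAD sequence GGAATGT that was also searched.

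Some kept distal peaks lay in groups. Chaining peaks no more than 10 kb apart placed 142 of the 409 in groups of 2 or more and left 267 on their own. One of the 2 largest groups held 11 kept peaks at chr22_KI270733v1_random:135665-151668, 10 of them with an IgG peak, with 42 to 128 DMSO tags at the summits. The other held 11 at chr4:49091699-49121182, near the centromere of chromosome 4, 8 of them with an IgG peak and with 27 to 125 tags. The third, at chrUn_KI270438v1:101813-112461, held 7 kept peaks, all 7 with an IgG peak, and 96 to 263 tags. Members of such a group can share sequence and are not independent sites, so intervals for shares of the kept distal peaks may be too narrow.

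The IgG-free chromosomal kept peaks rested on fewer tags. Their DMSO summits held 9 to 57 tags with a median of 17, the 146 seen under AMG510 held 7 to 45 with a median of 14, and the 121 seen under trametinib held 9 to 46 with a median of 15. Median fold enrichment was 5.05 in DMSO, 4.78 in AMG510 and 4.73 in trametinib. Where a peak was called in both libraries, the drug value was the higher one in 35.6% of peaks for AMG510 and 37.2% for trametinib, with median log2 ratios to DMSO of -0.15 and -0.16. For IgG-overlapping kept peaks the medians were 0.09 and 0.02, and for kept peaks near a TSS -0.21 and -0.22. These ratios were taken in the lists that chose the peaks and need a call in both, and they are given as a description. Among IgG-free chromosomal kept peaks, the summits lay within 100 bp of each other in 98 of 146 pairs for AMG510 and 82 of 121 for trametinib.

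**Figure D2:**
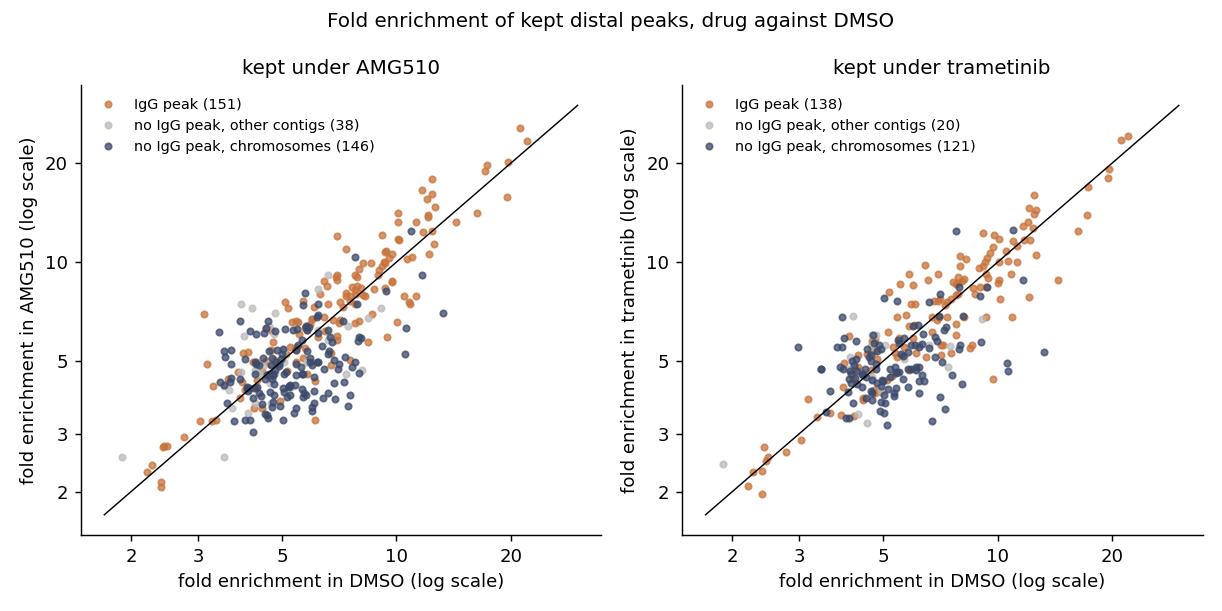
Fold enrichment at each kept distal peak in DMSO (horizontal axis, log scale) against the overlapping AMG510 or trametinib peak (vertical axis, log scale), coloured by IgG overlap and contig, with a line of equality. IgG-overlapping peaks reach higher values and lie along the line, and IgG-free chromosomal peaks range from 2.98 to 13.3 in DMSO.

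Stronger DMSO peaks were kept more often. Strength is part of what a second call needs, so the shares describe the rule. Over all DMSO c-MYC peaks divided into 4 equal bins of fold enrichment, the kept share of distal peaks was 3.64%, 4.61%, 6.81% and 33.3% from the weakest to the strongest bin. For distal peaks with no IgG peak on chromosomes 1 to 22 and X it was 1.77%, 3.17%, 4.47% and 17.5%. For TSS-near peaks it was 21.5%, 30.8%, 38.0% and 66.3%. Within the strongest bin, distal peaks were thus kept less often than TSS-near peaks.

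**Figure D3:**
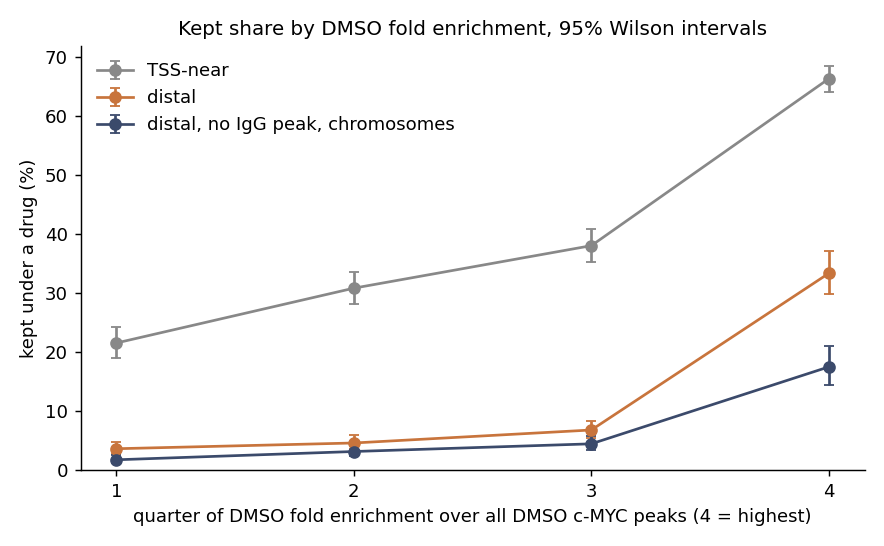
Share of DMSO c-MYC peaks kept under a drug (vertical axis, percent) by bin of DMSO fold enrichment (horizontal axis, 1 weakest to 4 strongest), for TSS-near, distal, and IgG-free chromosomal distal peaks, with 95% Wilson intervals. In the strongest bin the shares were 66.3%, 33.3% and 17.5%.

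The E-box was more frequent in kept than in other distal peaks, and the IgG-overlapping peaks held almost none of it. CACGTG, which reads the same on both strands, was present within 100 bp of the summit in 42 of 409 kept distal peaks (10.3%, 7.69 to 13.6) and 185 of 4194 distal peaks not kept (4.41%, 3.83 to 5.08). The difference was 5.86 points (3.19 to 9.23). Among IgG-overlapping kept peaks, 2 of 161 had it (1.24%, 0.34 to 4.42), and among IgG-free ones on other contigs 2 of 43 (4.65%, 1.28 to 15.5). Among IgG-free chromosomal kept peaks, 38 of 205 had it (18.5%, 13.8 to 24.4), against 183 of 4137 distal peaks not kept in the same setting (4.42%), a difference of 14.1 points (9.34 to 20.0). Windows of the same length 5 kb to each side of these 205 summits held it in 10 of 408 cases (2.45%). Kept TSS-near peaks without an IgG peak held it in 23.3% of cases, and the difference of -4.79 points from the 205 had an interval of -9.86 to 1.35, which includes 0.

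The direction of the E-box difference changed with a limit on the score. With only peaks of a deposited score above 60 in the DMSO and drug lists, where the difference in IgG overlap was 65.2 points, the E-box difference was -8.73 points (-15.1 to -1.84). With that limit and with IgG-overlapping peaks and other contigs left out, which was tried after seeing the data, it was 13.2 points (-0.49 to 28.9) with 43 kept peaks. With DMSO fold enrichment above 5 as the limit instead, and no peaks left out for IgG or contig, it was 6.77 points (2.51 to 11.9). The cause of the change was not tested.

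Within the 205, the E-box share differed with the number of drugs. It was 18 of 62 for peaks kept under both drugs (29.0%, 19.2 to 41.3) and 20 of 143 for peaks kept under a single drug (14.0%, 9.24 to 20.6), a difference of 15.0 points (3.21 to 28.2). Between peaks kept under AMG510 only (12 of 84) and trametinib only (8 of 59) the difference was 0.73 points (-11.7 to 11.9). The peaks kept under both were also stronger in DMSO, with a median of 21 tags against 16, and the part of strength in this difference was not tested. Where an E-box was present, its centre lay a median of 28 bp from the summit in the 205, against 40.5 bp in distal peaks not kept and 36.5 bp in kept TSS-near peaks.

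Other sequences were searched in the same windows, on both strands. The related sequence CACGCG was present in 46 of the 205 (22.4%) and in 91 of the 4137 IgG-free chromosomal distal peaks not kept. The difference was 20.2 points (15.0 to 26.4), and 0.74% of windows 5 kb away held it. The 4137 were not matched to the 205 for strength or GC content, and had a median of 12 DMSO tags against 17. GGGCGGG, recognised by SP and KLF factors, was present in 18.0% against 3.43%, a difference of 14.6 points (9.92 to 20.5). The AP-1 sequence TGANTCA was less frequent, with 5 of 205 (2.44%) against 6.43%, a difference of -3.99 points (-5.59 to -0.77). The ETS sequence CCGGAAG was more frequent, with 2.93% against 1.04%, a difference of 1.89 points (0.27 to 5.21). So was CTCF, with 1.95% against 0.70%, a difference of 1.25 points (0.02 to 4.22). Intervals included 0 for TEAD GGAATGT (1.46% against 2.22%), RUNX TGTGGTT (1.95% against 3.65%) and FOX TGTTTAC (1.95% against 2.34%). All of these, like AP-1, were present in at most 6 of the 205. A match says that the letters are there, not that a factor was bound, and GC-rich letters are found more often where GC content is high.

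GC content itself set these peaks apart. A window was called CpG-rich when GC exceeded 50% and the ratio of observed to expected CG exceeded 0.6. Of the 409 kept distal peaks, 132 were CpG-rich (32.3%, 27.9 to 37.0), against 320 of 4194 not kept (7.63%, 6.86 to 8.47), a difference of 24.6 points (20.2 to 29.4). Only 12 of 161 IgG-overlapping kept peaks were CpG-rich (7.45%), as were 3 of the 43 IgG-free ones on other contigs (6.98%, 2.40 to 18.6), whereas 117 of the 205 IgG-free chromosomal ones were (57.1%, 50.2 to 63.7). Kept TSS-near peaks without an IgG peak were CpG-rich in 92.2% of cases, 35.1 points above the 205 (28.4 to 42.0 points). Median GC content was 66.2% in the 205, 46.8% in distal peaks not kept and 72.6% in kept TSS-near peaks. With a score above 60 in both lists the CpG-rich difference between kept and not kept distal peaks was -15.0 points (-22.9 to -6.43), and 20.5 points (4.34 to 35.2) when IgG-overlapping peaks and other contigs were left out as well. Within the 205, the E-box was present in 26 of 117 CpG-rich windows (22.2%) and in 12 of 88 others (13.6%). Among IgG-free chromosomal distal peaks not kept it was present in 15.9% of CpG-rich windows and 3.48% of others.

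**Figure D4:**
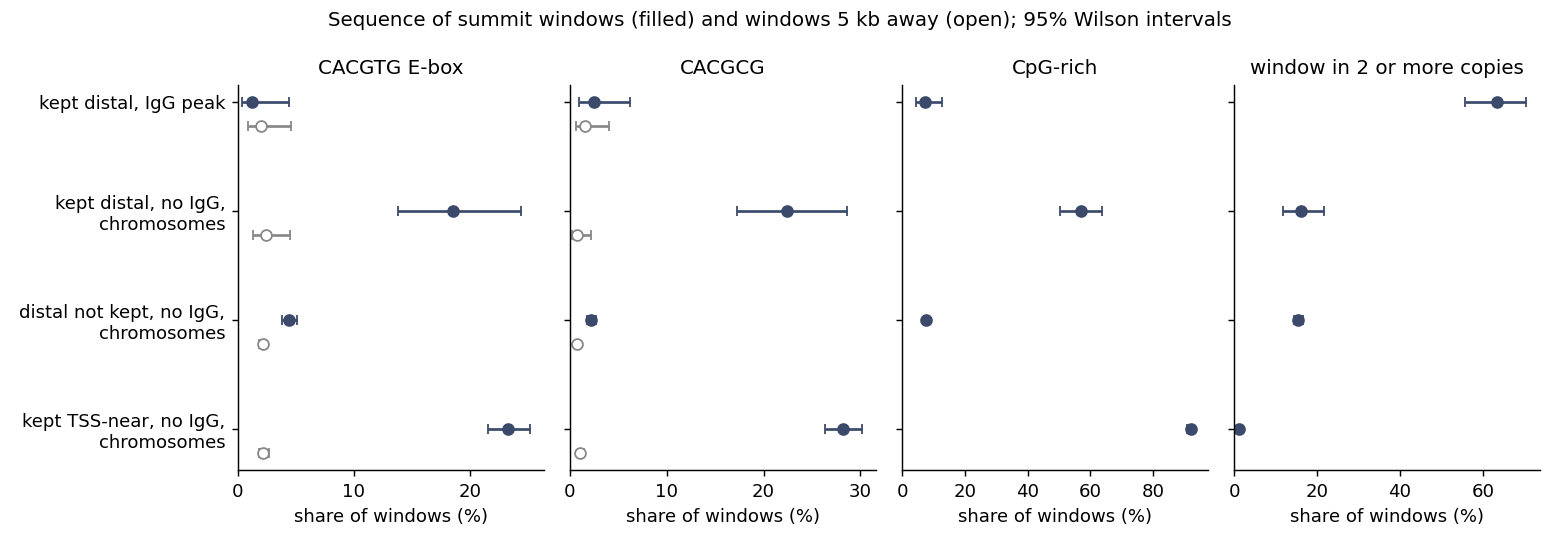
Share of 201-bp summit windows (horizontal axes, percent, filled points) with CACGTG, with CACGCG, called CpG-rich, or with 2 or more reference copies, in 4 sets of DMSO c-MYC peaks, with 95% Wilson intervals. Open points are windows 5 kb away. For CACGTG the IgG-free chromosomal kept peaks sit at 18.5%, near kept TSS-near peaks (23.3%), while IgG-overlapping kept peaks sit at 1.24%.

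The position relative to genes was then described. Intergenic summits, outside every protein-coding and lncRNA gene, made up 66.5% of the 409 against 40.1% of distal peaks not kept, a difference of 26.4 points (21.4 to 31.02). Within the 205 it was 45.4% against 39.4%, and the difference of 6.01 points had an interval of -0.82 to 13.0, which includes 0. Of the 205, 74 summits lay in introns of the canonical transcript, 14 in coding exons and 5 in UTR exons. Their median distance to the nearest TSS was 9572 bp, against 23504 bp for distal peaks not kept. Starts of transcripts of other types lay within 1 kb of 50 of the 205 (24.4%). Such types include transcripts of coding genes without a defined coding sequence, retained-intron transcripts and small non-coding transcripts. For IgG-free chromosomal distal peaks not kept the share was 4.62%, a difference of 19.8 points (14.4 to 26.1). With a score above 60 and all contigs, the corresponding difference for kept distal peaks was -0.55 points (-6.37 to 5.84). A start of any transcript of a coding or lncRNA gene lay within 1 kb of 13.7% of the 205, against 2.51% of IgG-free chromosomal distal peaks not kept. Of the 117 CpG-rich peaks, 38 were within 1 kb of some annotated start, and the other 79 were not.

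The starts of small nuclear RNA (snRNA) genes were a recurring kind, and were singled out after their values were seen. U1 and U5 snRNAs are parts of the spliceosome, the machine that removes introns. Such a start lay within 1 kb of 9 of the 409 kept distal peaks and of 7 of 4194 not kept. None of the 9 had an IgG peak. The 7 at U1 or variant U1 genes, namely RNU1-2, RNVU1-7, RNVU1-15, RNVU1-22, RNVU1-27, RNVU1-29 and RNVU1-34, were all kept under both drugs. The 2 at RNU5A-1 and RNU5A-8P overlapped an AMG510 peak and no trametinib peak. Over the 31 annotated U1 and variant U1 genes whose name has no P suffix, a summit lay within 1 kb of 14 in the DMSO list, 15 in the AMG510 list and 14 in the trametinib list, against 1 in the IgG list. Over the 5 such U5 genes the counts were 3 in DMSO, 4 under either drug and 0 in IgG. U1 genes are similar copies, and reads can be placed on a wrong copy, so the gene assigned to a peak can be uncertain. The words of the summit window had a median reference count of 13 at RNVU1-29, 2 at RNU1-2 and 1 at the other U1 sites named.

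The 10 strongest IgG-free chromosomal peaks kept under both drugs, ranked by their lowest percentile of fold enrichment in the 3 lists, included 4 of these U1 sites. RNVU1-15 (chr1:144412493-144412867) held 29 tags in DMSO and 21 under each drug, with its summit 128 bp from the gene start. RNVU1-27 (chr1:148522572-148523253) held 19, 24 and 30 tags, the only one of the 10 that was higher under both drugs than in DMSO by more than 3 tags. RNVU1-29 (chr1:146376760-146377446) held 21, 17 and 23 tags, and the words of its window occur 13 times in the reference. RNVU1-22 (chr1:148263378-148263630) held 21, 19 and 17 tags. At these 4 sites the counts in the 3 libraries were between 17 and 30.

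The other 6 lay in introns, pseudogenes or between genes. The first of the 10, at chr4:9153233-9153663, held 33 tags in DMSO, 29 under AMG510 and 31 under trametinib. Its summit was 170 bp from the start of the pseudogene FAM86KP and 1191 bp from the nearest TSS of the set, that of the lncRNA ENSG00000288075. In intron 1 of PRRX2, a homeobox transcription factor gene, the peak at chr9:129697329-129697944 held 41, 27 and 33 tags, 31817 bp from the gene's canonical start. The peak at chr19:50804316-50804574 held 29, 23 and 23 tags, 133 bp from the start of a processed transcript of C19orf48P.

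Of the rest, 2 were in lncRNA genes named only by an identifier, with long distances to coding genes. The peak in intron 2 of ENSG00000259053 (chr14:89701719-89702009) held 18 tags in DMSO and 16 under each drug, and its E-box starts 7 bp before the summit. The peak in intron 2 of ENSG00000289832 (chr12:1661911-1662115) held 26, 16 and 23 tags, and the nearest coding gene, ADIPOR2, which encodes an adiponectin receptor, starts 29048 bp away. The peak in intron 6 of GUSBP1 (chr5:21495336-21495563) held 19, 20 and 19 tags and lies in sequence of 2 copies. The annotation gives the name GUSBP1 here both to a gene of coding or lncRNA type, which holds the intron, and to a pseudogene. The 10 were ranked by the lowest of their 3 percentiles, which selects peaks that are high in every library, so the overlap of their intervals across the libraries says nothing about a drug effect.

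**Figure D5:**
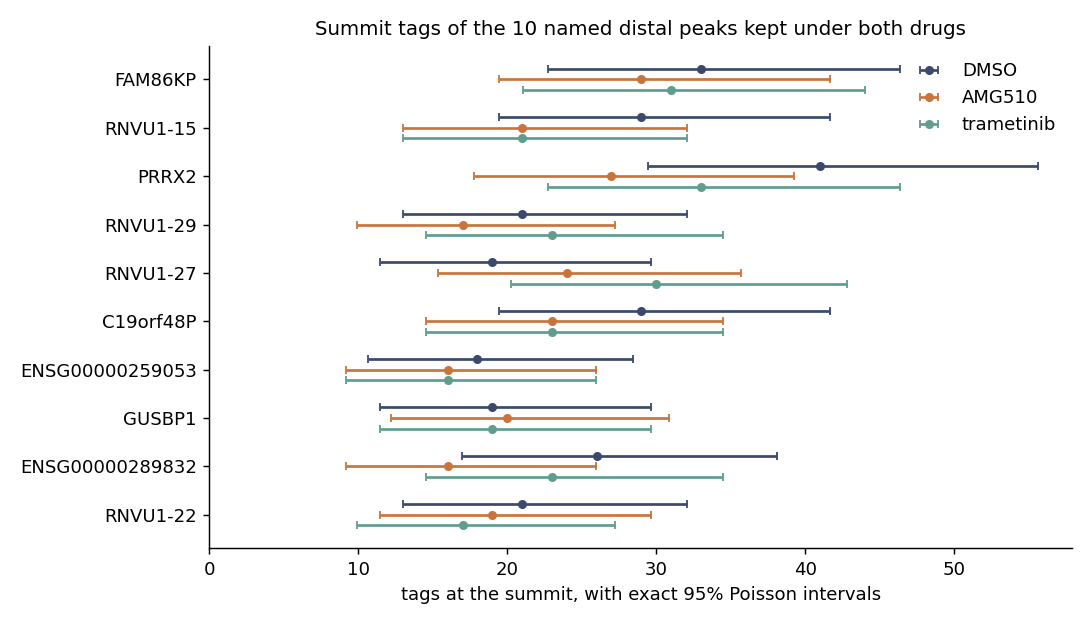
Tags at the summit (horizontal axis) of the 10 named IgG-free chromosomal peaks kept under both drugs, in DMSO, AMG510 and trametinib, with exact 95% Poisson intervals. The counts range from 41 tags in DMSO at PRRX2 to 16 at ENSG00000259053 under either drug. The peaks were ranked to be high in all 3 libraries, so the overlap of intervals follows from the choice.

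E-boxes lay within 100 bp of the summit in 18 of the 62 IgG-free chromosomal peaks kept under both drugs. Of these 18, 16 had fewer tags under both drugs than in DMSO, and 2, near SRC and EDN2, had fewer under trametinib only. Among all 62, which include the 18, 40 had fewer under both, 16 under a single drug and 6 under neither. Median log2 tag ratios to DMSO under AMG510 and trametinib were -0.36 and -0.28 for the 62. For kept TSS-near peaks they were -0.47 and -0.42, so lower tags were not particular to these distal sites. All 62 were chosen through calls in these same libraries, so the counts are a description and a drug effect was not tested. At most of the 18, fold enrichment was also lower under both drugs than in DMSO. It was higher under both at FAM86KP and near SRC and EDN2. Both drug intervals lay below that of DMSO at 2 of the 18, near HHIPL2 and in ANP32B, and at 3 of all 62. The peaks described here were chosen after their values were seen. Each count is from 1 library, its interval may be too narrow, and drug tags were read at the summit of the drug peak. The peak at chr1:222465502-222465909 lay between genes, 82429 bp from the canonical start of HHIPL2. Its summit held 43 tags in DMSO (exact Poisson interval 31.1 to 57.9), 19 under AMG510 (11.4 to 29.7) and 17 under trametinib (9.90 to 27.2). In intron 1 of ANP32B, a histone-binding nuclear protein, the peak at chr9:97984613-97985167 held 47, 17 and 19 tags, 1589 bp from the TSS and 338 bp from the start of an ANP32B transcript without a defined coding sequence. At chr20:37406436-37406762, 22501 bp from the nearest TSS of the tyrosine kinase gene SRC, in an intergenic stretch, it held 17, 17 and 16 tags and 2 E-boxes. At chr19:12793966-12794186, within the span of HOOK2 and 2578 bp from the start of JUNB, an AP-1 subunit, it held 24, 18 and 16 tags. At chr1:41496416-41496787, 11833 bp from the start of EDN2, which encodes the vasoactive peptide endothelin-2, it held 20, 22 and 17 tags. Other sites with fewer tags under both drugs were 84415 bp from the canonical start of NKAIN1 (chr1:31155177-31155850), with 44, 21 and 14 tags, and 104983 bp from that of ATF7IP (chr12:14260542-14260832), with 44, 21 and 20.

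Peaks kept under a single drug were weaker, and their strongest examples were fixed by DMSO fold enrichment among peaks with no IgG peak. Under trametinib only, the first was 19912 bp upstream of TCF3, a basic helix-loop-helix factor gene whose product itself binds E-boxes. That peak (chr19:1672385-1672729) held 41 tags in DMSO and 17 in trametinib, and 2 E-boxes. The next lay in intron 2 of the lncRNA ENSG00000287001 (chr19:50135172-50135421), with 26 and 28 tags. Another, at chr7:32728472-32729190, held 23 and 18 tags, 58 bp from the start of a processed transcript of ZNRF2P1. The last, at chr6:170177268-170177489, held 22 and 9 tags, and its trametinib count is near the fewest that gave a call.

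Under AMG510 only, 2 of the 4 strongest lay on unplaced contigs. The peak at chrUn_KI270756v1:566-862 held 24 tags in DMSO and 19 in AMG510, and that at chrUn_GL000216v2:142360-142623 held 23 and 12. At chr13:30674221-30674543, between the starts of USPL1 and ALOX5AP, the counts were 22 and 15, and at chr2:87418938-87419152 they were 19 and 11. A missing call under the other drug does not show that the site was unbound, since the lists hold only places past the calling limit.

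The strongest distal peaks that were not kept were of similar DMSO strength. At chrX:72018496-72018775, in intron 1 of NHSL2, the summit held 23 tags. At chr13:28753613-28753897, 34770 bp from SLC46A3, it held 26, at chr17:79294615-79294885, in intron 3 of RBFOX3, 23, and at chr7:128135622-128135865, 25. Their DMSO fold enrichment, 8.18 to 9.19, was above that of 7 of the 10 peaks kept under both drugs named above, and the peaks in RBFOX3 and on chromosome 7 held an E-box.

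The nearest coding genes were set against the gene lists, by canonical start, for the 280 kept peaks on a contig with an annotated TSS. A gene of the MYC network (13 genes) was nearest to 1 kept distal peak, 5 distal peaks not kept and 4 kept TSS-near peaks. Ribosomal protein genes (87) were nearest to 0, 12 and 65 peaks, in the same order. For MAPK output and feedback (23 genes) the counts were 0, 10 and 4, for lipid synthesis (21) 0, 5 and 5, and for the lysosome and phosphoinositide list (10) 0, 1 and 1. With 4147 peaks not kept on such contigs against 280, counts this small do not tell the sets of distal peaks apart. The MYC network peak that was kept lay at MNT, which encodes a MAX-binding repressor that opposes MYC. It was in intron 4 (chr17:2393451-2394155), 7250 bp from the MNT start and 20 bp from the start of an MNT transcript without a defined coding sequence, with 27 tags in DMSO and 12 in AMG510, no peak in trametinib or IgG, no E-box and 2 CACGCG.

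Peaks near the limits of the rule show what it turns on. The kept peaks closest to 1 kb were in intron 1 of YBX3 (chr12:10722058-10723091, 1007 bp from a YBX3 TSS, with 25 tags in DMSO, 25 under AMG510 and 21 under trametinib) and in intron 1 of XXYLT1 (chr3:195259403-195260029, 1012 bp from the lncRNA ENSG00000287005, 20 tags in DMSO and 14 in AMG510). Just inside it were peaks 987 bp from a lncRNA start beside HES1 (chr3:194134095-194134451, 33 and 16 tags) and 985 bp from the start of KLF9 (chr9:70413419-70413706, 12 tags in DMSO and 12 in trametinib). The smallest overlaps with a drug peak were 7 bp, at chr7:105913287-105913543 in CDHR3, and 21 bp, on an unplaced contig. The closest misses were gaps of 1 bp, at chr6:35731967-35732172, and 5 bp, at chr6:170398957-170399232, in distal peaks with 16 DMSO tags each, the second of which had an IgG peak. Of the 409, 29 had a start of any transcript of a coding or lncRNA gene within 1 kb, and the other 380 did not.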

How the data were processed

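For the deposited lists, the authors used Trimmomatic 0.39 for trimming and BWA 0.7.17 for alignment to GRCh38. They kept high-quality alignments with SAMtools 1.9, removed duplicates with Picard and called peaks per library with MACS2 2.2.7.1 at default settings, leaving out peaks on the ENCODE exclusion list. Each deposited list gives a score (the −log10 q-value times 10), a fold enrichment (a ratio of summit pileup to background), a −log10 p-value and a −log10 q-value per peak, all made by the authors. Values within a list were used as deposited, and no test across features was run, since each group had 1 library.

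The background and a whole number of tags at each summit were solved from fold enrichment and −log10 p-value. The solution matched the deposited −log10 p-value to within 0.01 for 100% of peaks. At all 161 IgG-overlapping kept peaks the DMSO background (median 2.87 tags) lay below the IgG pileup (median 27), so lists were treated as called against their own library. Mates of a pair may both count as tags, which makes counting intervals too narrow. The depth was obtained with a genome size of 2700000000 bp and the shortest peak width as fragment length. Where several drug or IgG peaks overlapped a DMSO peak, the one of highest fold enrichment was used.

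Annotation was GENCODE version 44 and the sequence an upper-case GRCh38, whose 31-base words were counted over 194 contigs without alternate loci. Every deposited peak was placed on a contig of that name, and coordinates are 1-based. Shares carry Wilson and differences Newcombe 95% intervals, tags exact Poisson intervals (scipy 1.17.1, statsmodels 0.14.6, pysam 0.24.0). Functions were tested on simulated data. The kept distal peaks, the gene lists and the rules for named peaks were chosen with earlier results of these data known. Named were the 10 strongest IgG-free peaks kept under both drugs, 4 per single drug, 3 with an IgG peak, 4 not kept, those nearest the limits of the rule, those nearest a listed gene, and the 3 largest groups. Alternatives changed the overlap, the distance, the TSS set, the strength limits, IgG, contigs and list length. The share of repeat-masked sequence was not run, because the reference carries no mask, and copy number stands in its place.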

Additional observations from a re-analysis of the deposited data

Results flagged for a closer look

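At 3 of the 10 strongest IgG-free chromosomal peaks kept under both drugs, fold enrichment relative to DMSO moved in opposite directions under the 2 drugs. The difference was not tested, with 1 library per group. At RNVU1-29 the log2 ratio to DMSO was -0.083 under AMG510 and 0.089 under trametinib, with 21 tags in DMSO, 17 under AMG510 and 23 under trametinib. In ENSG00000289832 it was -0.32 and 0.20, with 26 tags in DMSO, 16 under AMG510 and 23 under trametinib. At RNVU1-22 it was 0.15 and -0.17, with 21, 19 and 17 tags in the same order. In ENSG00000289832 and at RNVU1-22 the tags were thus lower under both drugs than in DMSO, and only fold enrichment moved in opposite directions. These peaks were ranked to be high in all 3 c-MYC libraries.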

How the results depend on the processing

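The number of kept distal peaks, 409, stayed within a factor of 1.5 for the stricter overlaps, the longer distances, the wider TSS set, equal list lengths and chromosomes 1 to 22 and X (277 to 384 peaks). It was 244 with DMSO fold enrichment above 5, 175 with a score above 60 and 248 without IgG-overlapping peaks. With alternatives chosen after seeing the data, all without IgG-overlapping peaks and other contigs, it was 205, 108 with fold enrichment above 5 as well, 172 in single-copy sequence and 43 with a score above 60. The kept share, 8.89%, was 7.52% with the DMSO summit inside a drug peak, 22.6% with fold enrichment above 5, 40.0% with a score above 60, 5.60% without IgG-overlapping peaks and 6.26% on chromosomes 1 to 22 and X. With the added alternatives it was 4.72%, 11.6%, 4.69% and 15.7%, in the order above. Of 83 alternative values of the differences between kept and not kept distal peaks, 73 kept their direction and an interval on the same side of 0. With a score above 60 the differences were -8.73 points for the E-box, -15.0 for CpG-rich windows and -0.55 for other transcript starts, and the cause was not tested. Without IgG-overlapping peaks and other contigs, the intergenic difference was 6.01 points, 4.30 in single-copy sequence and -0.95 with a score above 60. The multi-copy difference, a comparison chosen after seeing the data (21.7 points), was 0.60, -2.67 with fold enrichment above 5 and 1.29 with a score above 60. The E-box difference was 13.2 points in the last of these settings, with an interval that includes 0. No paired analysis was possible because no group had a second library, so leaving a library out was not possible either.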
